A study of Mus musculus with 42 samples.

Results

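The 33 genes described here encode the vacuolar proton pump and proteins that span or line the membrane of the lysosome, and they were taken from 24225 genes of an expression table by their symbols. Of these, 10 encode the V1 sector of the pump (Atp6v1 genes), 8 its V0 sector (Atp6v0 genes) and 2 its accessory proteins (Atp6ap1 and Atp6ap2). A further 8 encode structural, receptor and trafficking proteins of the membrane (Lamp1, Lamp2, Scarb2, Cd63, Cd68, Tmem192, Laptm4a and Cln3), and 5 encode channels and transporters (Mcoln1, Clcn7, Ostm1, Ctns and Slc17a5). Messenger RNA was sequenced in 42 libraries from mouse embryonic stem cells (ESC) of a C57Bl/6 background and from embryoid bodies, the aggregates such cells form without leukaemia inhibitory factor. W1 and W2 are wild-type (WT) lines. K1 and K3 are lines labelled DKO, for the deletion of the AMP-activated protein kinase AMPK, whose catalytic subunits are encoded by Prkaa1 and Prkaa2. Embryoid bodies were taken on days 2, 4, 8 and 12, grown at 25 mM (high, HG) or 2.5 mM (low, LG) glucose, and the ESC at 25 mM, which gave 18 groups. All lines had been grown on irradiated feeder cells and passaged without them before use. How the lines were derived, and whether each is a clone, was not given in the labels. The line was the replicate, with at most 2 lines per group. Nothing in the labels gives a shared parent or separate derivations, so p-values speak for these lines only. The spread was pooled over the groups with 2 lines. For a group left with a lone line, as WT on LG days 8 and 12 and DKO on HG days 8 and 12, no spread was measured. Standard errors and p-values of comparisons with such a group assume that it varies like the others. The main fit treated values of a line in different conditions as independent, although deviations of the same line correlated at 0.116 to 0.64.

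The V-ATPase couples the hydrolysis of ATP in its V1 sector, which faces the cytosol, to the rotation of a ring of proteolipids in the membrane-bound V0 sector, and so moves protons into the lysosome. The acid lumen drives the hydrolases and powers the exporters of the membrane, while glycoproteins such as Lamp1 coat the inner face of that membrane. The transcription factor Tfeb, named in the series title together with AMPK and lysosomes, activates many of these genes through the CLEAR element, an E-box with the core letters CACGTG. In the mouse embryo the visceral endoderm, which also forms on the outside of embryoid bodies, is known for its large lysosomes and apical vacuoles.

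Promoters of the members are shown because 24 of the 31 tested members were lower in DKO on the last day under low glucose, as described further on, and because the CLEAR letters are the element known for this pathway. RefSeq windows of build GRCm38.p6, from 250 bases before to 50 after each annotated start site, were found for 27 of the 33 members. The core CACGTG, which reads alike on both strands, was in a window of 8 of these 27 members (29.6%), and in 2187 of all 27025 genes with a window (8.09%), or 7.15% of all 32851 windows. The longer TCACGTGA, which contains the core, was in 6 of 27 members (22.2%) and in 1.12% of all genes. The full CLEAR palindrome, the core with GT before it and AC after it, was in 1 member, Cln3 (3.7%), and in 0.37% of all genes. Lamp1 held 4 cores within its window, Mcoln1, Atp6v0b, Cln3 and Clcn7 held 2 each, and Atp6v0d1, Atp6v1a and Atp6v0e held 1 each. These letters are a description of the windows, not evidence of binding. In the lines that follow, capitals mark the core, or the longer motif of 8 bases where it is present, and each sequence is read 5′ to 3′ on the strand of its gene. For Lamp1, 2 of its 4 cores are shown, and for Cln3 and Clcn7 the core of the longer motif. The Atp6v1a window lies at another start site than that of the listed transcript.
Lamp1, chr8:13159090-13159134, plus strand, upstream of the listed transcript: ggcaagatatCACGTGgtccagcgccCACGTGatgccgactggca
Mcoln1, chr8:3500438-3500489, plus strand: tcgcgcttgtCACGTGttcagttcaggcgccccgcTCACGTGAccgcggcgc
Atp6v0b, chr4:117887332-117887375, minus strand: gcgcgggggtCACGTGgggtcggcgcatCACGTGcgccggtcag
Cln3, chr7:126583340-126583369, minus strand: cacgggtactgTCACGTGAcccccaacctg
Atp6v0d1, chr8:105566050-105566079, minus strand: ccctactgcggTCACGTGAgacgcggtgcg
Atp6v1a, chr16:44139373-44139402, minus strand: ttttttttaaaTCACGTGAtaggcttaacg
Clcn7, chr17:25133386-25133415, plus strand: ccgatgatagaTCACGTGAgacctgggcgc
Atp6v0e, chr17:26676387-26676416, plus strand: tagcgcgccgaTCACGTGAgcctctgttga

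Before any comparison, each library was set against its label. Prkaa2, a catalytic subunit gene of AMPK, was to be above 1 RPKM (reads mapped per kilobase of transcript, scaled to the size of the library) in WT and below it in DKO. Txnip, a gene that glucose induces, was to be above 5 RPKM in HG and below it in LG. Y-linked and imprinted genes had to show the pattern of the labelled line. That pattern is not in the labels and was set by thresholds on the levels in these same libraries. All 3 went with the label in 24 libraries, 13 of WT and 11 of DKO, and at least 1 went against it in 18, namely Prkaa2 in 9, Txnip in 8 and the line pattern in 15. In the 24 label-matched libraries Prkaa2 was between 1.32 and 22.3 RPKM in WT and between 0.019 and 0.959 RPKM in DKO, while Prkaa1 was at 4.01 to 6.63 RPKM in DKO against 6.53 to 11.2 in WT. Which exons were deleted was not given, so Prkaa1 reads outside them check nothing. The comparisons rest on these 24 libraries, with no library moved to another group, and the counts with all 42 libraries as labelled are given beside them. In the label-matched set the WT side of LG days 8 and 12 is W1 alone and the DKO side of HG days 8 and 12 is K3 alone. The whole-read steps of low genes gave depths of 10500000 to 25200000 reads, the median library having 15300000.

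Among the members, Lamp1 had the highest median level over the label-matched libraries (244 RPKM), followed by Laptm4a (113 RPKM) and the V1 stalk subunit gene Atp6v1e1 (106 RPKM). The lowest were Atp6v0d2 (0.026 RPKM) and Atp6v1c2 (0.246 RPKM), which stayed under 1 RPKM in all 42 libraries and were not tested, while the other 31 members were. Their highest libraries were at 0.297 and 0.869 RPKM. Of the 33 members, 17 had their highest label-matched level in the W1 LG day 12 library and 22 had their lowest in a K3 library. The same shares over all genes were not computed, so these counts cannot be read as particular to the members. Over all 42 libraries the levels of Slc17a5 spanned 19.4-fold, of Cd63 13.4-fold, of Atp6v0a1 13.3-fold and of Ctns 12.7-fold, and those of Scarb2, Atp6v1a and Atp6v1h spanned 2.31-fold, 2.41-fold and 2.68-fold.

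**Figure D1:**
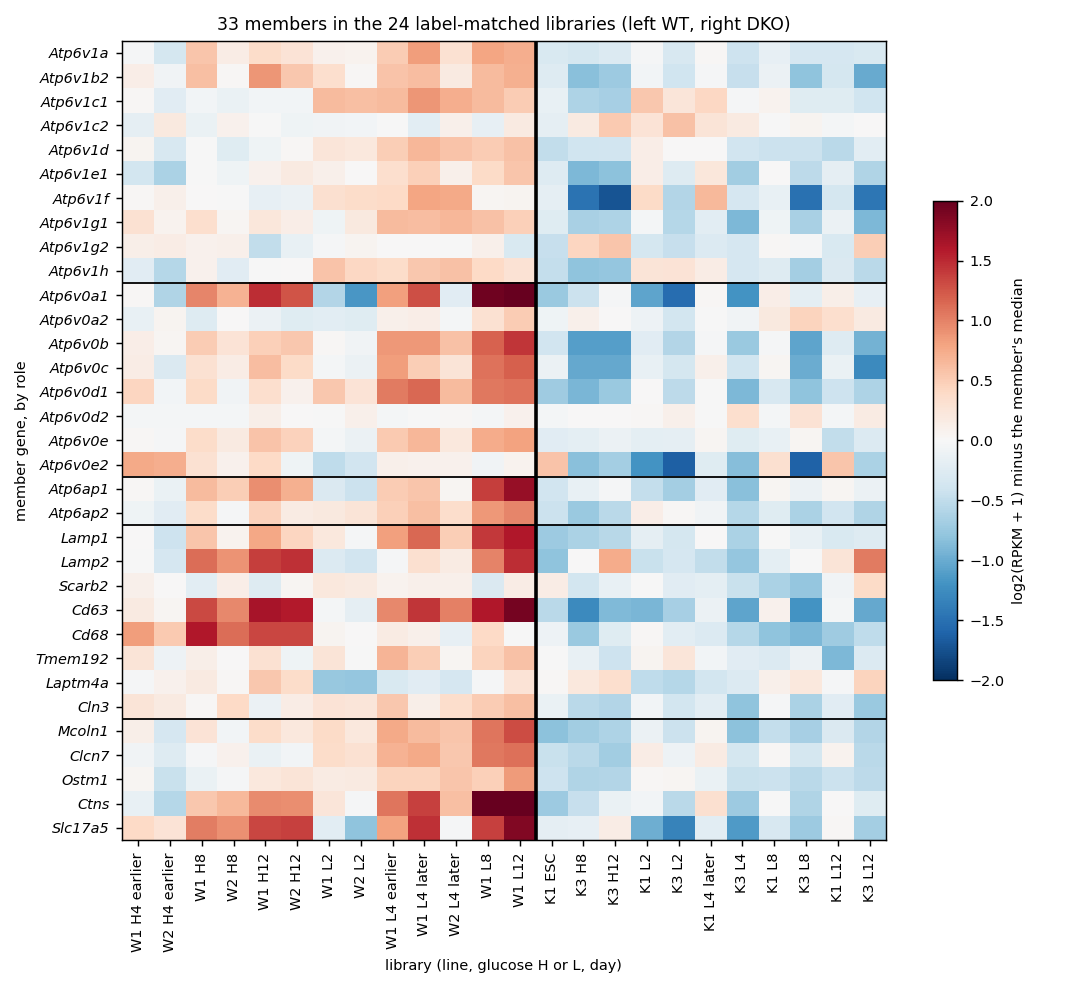
Level of each of the 33 members (vertical, by role) in each of the 24 label-matched libraries (horizontal, WT left of the thick line and DKO right of it), as log2(RPKM + 1) minus the member's own median over these libraries. The W1 libraries of LG days 8 and 12 are the reddest columns and K3 libraries the bluest. Scarb2, Laptm4a, Atp6v0a2, Atp6v1g2 and Cd68 are among the members that depart from that pattern.

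At LG day 12, most members were lower in DKO than in WT embryoid bodies, in every role class. Of 31 members tested, 24 were lower and 0 higher at an adjusted p below 0.05 (limma, adjusted over all 14670 genes tested; 25 members had an unadjusted p under 0.05), against a background of 13% of all genes lower and 22.3% higher. The members' median log2 difference was -1.17, and that of all genes 0.16. Under median-of-ratios scaling the median of all genes moved by -0.11, the background became 16.7% lower and 16.5% higher, and 25 members were lower. With all libraries as labelled, 1 member was lower and 0 were higher, with a median of -0.50. The library labelled W2 at this day had Prkaa2 at 0.04 RPKM and Txnip at 190.3 RPKM. Without W2, which enters only the estimate of the spread here, 16 members were lower. These are levels in whole embryoid bodies, in which fewer cells of a type and less RNA per cell cannot be told apart.

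Marker genes of cell types moved with this comparison. Of 13 visceral endoderm markers 9 were lower and 0 higher in DKO at LG day 12, and their summed level was 2936 RPKM in W1 against 121 and 219.6 RPKM in the DKO lines. Of 8 pluripotency markers 6 were higher and 1 lower, with sums of 132 RPKM in W1 and 320.3 to 379 RPKM in DKO. Of 7 fibroblast and feeder markers 4 were lower and 1 higher, with sums of 1059 RPKM in W1 and 274 to 397 RPKM in DKO. Of 6 macrophage markers tested 2 were lower, and the macrophage markers summed to 8.61 RPKM in W1 and to 1.47 and 3.65 RPKM in DKO, and Emr1 was at 0 in K1 and at 0.123 RPKM in W1. Of 6 neural markers 3 were higher and 0 lower in DKO, of 5 cardiac markers 0 passed, with 0 at an unadjusted p under 0.05, and of 3 osteoclast markers tested 1 was lower and 1 higher, with Dcstamp at 0 in all 3 libraries. The part of these cell types in the difference of the members was not tested.

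In the V1 sector, 7 of 9 tested genes were lower in DKO at LG day 12 and 4 of 9 at LG day 8. Atp6v1d (chr12:78842982-78861638, mm10), whose product is part of the central shaft, was at 92.2 RPKM in W1 and at 41.5 and 52.4 RPKM in K1 and K3 at day 12. Atp6v1a (chr16:44085404-44139019), whose product holds the catalytic sites for ATP, was at 66.9 RPKM in W1 against 31.7 and 32.3 RPKM. Both DKO lines lay below W1 for both genes, with log2 differences of -0.97 ± 0.19 (SE, limma adjusted p = 0.00286) and -1.04 ± 0.23 (limma adjusted p = 0.00469). Atp6v1b2, the non-catalytic nucleotide-binding subunit, was at -1.38, Atp6v1c1 and Atp6v1h, subunits of the collar between the sectors, at -0.83 and -0.70, and the stalk subunit genes Atp6v1g1 and Atp6v1e1 at -0.98 and -0.94, all past the threshold, Atp6v1g1 with an adjusted p of 0.0499. Atp6v1f, a shaft subunit, did not pass (-0.94 ± 0.56, limma adjusted p = 0.211), nor did Atp6v1g2, the stalk isoform known from neurons (0.40 ± 0.26, limma adjusted p = 0.25).

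In the V0 sector, 5 of 7 tested genes were lower at LG day 12 and 5 of 7 at LG day 8. Atp6v0b (chr4:117884330-117887329), a proteolipid of the rotating ring, was at 184 and 219 RPKM in W1 on days 8 and 12, at 79.3 and 67.3 RPKM in K1 and at 38.1 and 41.2 RPKM in K3. Atp6v0e (chr17:26676396-26699646), a small membrane subunit, was at 128 and 134 RPKM in W1, at 68.9 and 53.8 RPKM in K1 and at 78.0 and 62.7 RPKM in K3. Every DKO value of these genes lay below both W1 values, and the day 12 differences were -2.04 ± 0.39 for Atp6v0b (limma adjusted p = 0.00241) and -1.20 ± 0.17 for Atp6v0e (limma adjusted p = 0.000466). Atp6v0c, the other proteolipid, was at -1.90, Atp6v0d1, which joins the ring to the shaft, at -1.60 and Atp6v0a1, the membrane subunit that lines the proton path, at -2.04, all past the threshold. Atp6v0a2 (-0.26 ± 0.18, limma adjusted p = 0.28) and Atp6v0e2 (-0.11 ± 0.63, limma adjusted p = 0.912) did not pass. Atp6v0c and Cd63 have named pseudogenes, so the level of each is uncertain.

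Both accessory genes were lower in DKO on both days. Atp6ap1 (chrX:74297097-74304721), whose product helps assemble the V0 sector, was at 129.8 and 167 RPKM in W1 on LG days 8 and 12, at 50.7 and 51.0 RPKM in K1 and at 45.5 and 45.3 RPKM in K3. Atp6ap2 (chrX:12587759-12617051), also called the prorenin receptor, was at 67.7 and 72.8 RPKM in W1, at 30.7 and 27.9 RPKM in K1 and at 23.3 and 23.9 RPKM in K3. Every DKO value lay below both W1 values, and W1 was higher on day 12 than on day 8. The day 12 differences were -1.77 ± 0.24 (limma adjusted p = 0.000357) and -1.46 ± 0.23 (limma adjusted p = 0.000927), and those of day 8 were -1.42 and -1.30.

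Of the 8 structural, receptor and trafficking genes, 5 were lower at LG day 12 and 4 at LG day 8. Lamp1 (chr8:13159135-13175338), the most abundant glycoprotein of the lysosomal membrane, was at 648 and 745 RPKM in W1 on days 8 and 12, at 242 and 198 RPKM in K1 and at 219.8 and 204 RPKM in K3. Cd63 (chr10:128909866-128912818), a tetraspanin of late endosomes and lysosomes, was at 158 and 198 RPKM in W1, at 54.7 and 50.4 RPKM in K1 and at 21.9 and 24.9 RPKM in K3. Lamp2 (chrX:38405049-38456460), which is needed for the fusion of autophagosomes with lysosomes, was at 53.4 and 75.2 RPKM in W1, at 22.9 and 31.5 RPKM in K1 and at 26.1 and 55.0 RPKM in K3. On each day W1, the lone WT library, lay above both DKO libraries in all 3 genes. The share of all genes placed so was not computed. The Lamp2 level of K3 at day 12 passed that of W1 at day 8. The day 12 differences were -2.45 ± 0.49 for Cd63 (limma adjusted p = 0.00306), -1.88 ± 0.30 for Lamp1 (limma adjusted p = 0.000841) and -0.84 ± 0.25 for Lamp2 (limma adjusted p = 0.0233). With all libraries as labelled the Lamp2 difference changed sign, to 0.28 (limma adjusted p = 0.872). Tmem192 (-1.17) and Cln3 (-1.08), a gene of juvenile Batten disease, also passed at day 12. Scarb2, the receptor that carries glucocerebrosidase to lysosomes, was at 0.00 ± 0.21 and Laptm4a at -0.06 ± 0.16, and neither passed (limma adjusted p = 1 and 0.798). Cd68, known as a marker of macrophages, was lower at day 8 (-1.25 ± 0.22, limma adjusted p = 0.00466) and at -0.59 ± 0.22 at day 12 (limma adjusted p = 0.0562).

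All 5 channel and transporter genes were lower in DKO on both LG day 8 and LG day 12. Mcoln1 (chr8:3500519-3515231), the cation channel TRPML1, was at 54.6 and 64.1 RPKM in W1 on the 2 days, at 17.9 and 20.7 RPKM in K1 and at 15.7 and 16.6 RPKM in K3. Clcn7 (chr17:25133394-25162099), the exchanger of chloride and protons, was at 27.1 and 28.2 RPKM in W1, at 12.8 and 13.3 RPKM in K1 and at 9.67 and 8.29 RPKM in K3. Ostm1 (chr10:42678916-42702462), the partner subunit of Clcn7, was at 16.4 and 21.6 RPKM in W1, at 8.28 and 8.33 RPKM in K1 and at 7.58 and 7.71 RPKM in K3. No DKO value reached a W1 value in any of these genes, and the day 12 differences were -1.74 ± 0.30 for Mcoln1 (limma adjusted p = 0.00149), -1.34 ± 0.26 for Clcn7 (limma adjusted p = 0.00259) and -1.32 ± 0.19 for Ostm1 (limma adjusted p = 0.000421). Ctns, the exporter of cystine, and Slc17a5, the exporter of sialic acid known as sialin, had larger differences, -2.19 ± 0.40 (limma adjusted p = 0.00182) and -2.19 ± 0.47 (limma adjusted p = 0.00449), and are named after their values were seen. Ctns was at 45.7 RPKM in W1 and at 10.1 and 8.33 RPKM in K1 and K3, and Slc17a5 at 15.5 and at 3.63 and 1.83 RPKM.

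All 8 members with the CACGTG core in a promoter window were among the 24 lower at LG day 12, against 13% of all genes lower. The share lower among all genes with the core was not computed, and a part of the core in the difference was not tested. Of the 18 tested members whose windows lacked the core, 12 were lower, among them Ctns, Slc17a5 and Atp6ap1. Cd63 and Atp6v0a1 are also among the 12, but their windows lie at another start site than that of the listed transcript. So does the window of Atp6v1a, which is among the 8 with the core. Of 5 tested members without a window, 4 were lower.

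**Figure D2:**
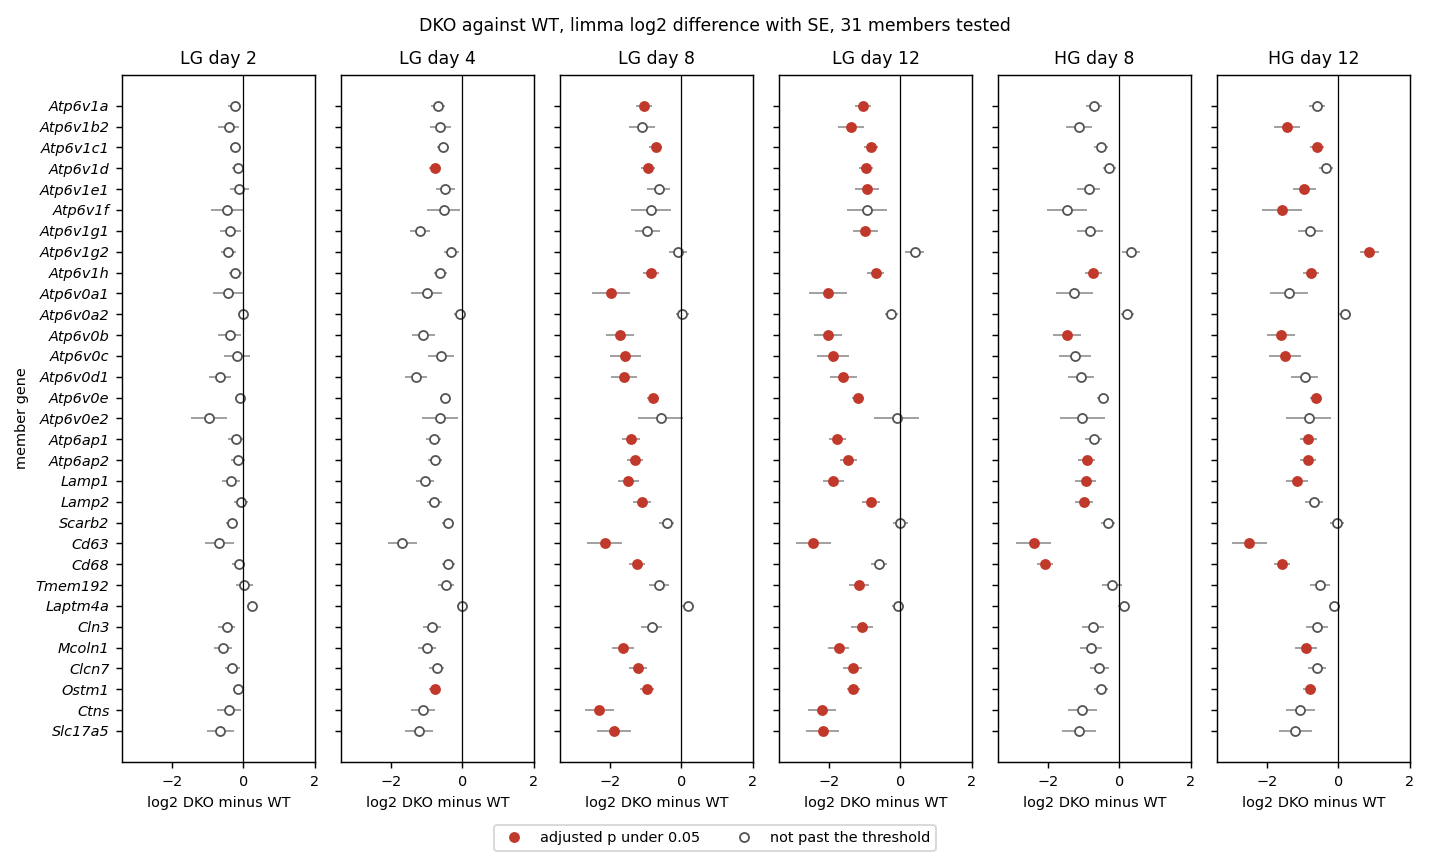
DKO minus WT log2 difference with its standard error (horizontal) for each of the 31 tested members (vertical) in 6 conditions of the label-matched set, with filled points for an adjusted p below 0.05 (limma). The points move left from LG day 2 (0 of 31 past the threshold) to LG day 12 (24 of 31), and Cd63 lies farthest left at LG day 12 and on both HG days.

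The difference was smaller on the earlier days. At LG day 2, with 2 lines in each genotype, 0 of 31 members passed in limma, 2 had an unadjusted p under 0.05 and the median was -0.31, against a background of 0.143% of genes lower and 0.00682% higher. Lamp1 was at 281 and 239.8 RPKM in W1 and W2 and at 216 and 192 RPKM in K1 and K3 on that day. Atp6v0a1 was at 16.1 and 10.4 RPKM in W1 and W2 and at 11.3 and 7.86 RPKM in K1 and K3, so that W2 lay below K1. At LG day 4, 2 members were lower and 0 higher, against a background of 1.29% lower and 0.382% higher, with a median of -0.73. They were Atp6v1d (-0.77 ± 0.16, limma adjusted p = 0.0402) and Ostm1 (-0.78 ± 0.15, limma adjusted p = 0.0334). Visceral endoderm markers summed to 31.2 to 367 RPKM in WT and to 3.92 and 76.7 RPKM in DKO on this day, and their part was not tested. With the line as a replicate block the count at this day was 9, all lower. It was 0 with all libraries as labelled, 0 without W1 or without W2 and 23 without K1.

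At LG day 8, 20 members were lower and 0 higher, against a background of 7.94% lower and 11% higher (with median-of-ratios scaling 10.4% and 6.59%), and the median was -1.04. The sum of the visceral endoderm markers was 1035 RPKM in W1 and 31.8 and 163 RPKM in the DKO lines on this day, with 7 of 13 lower. Of 8 pluripotency markers 3 were higher and 1 lower, and 2 of 6 neural, 1 of 7 fibroblast and feeder and 1 of 5 cardiac markers were higher. The part of these lists in the difference was not tested. With all libraries as labelled 0 members passed at LG day 8 in limma, with a median of -0.35. Without W2 0 passed as well.

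**Figure D3:**
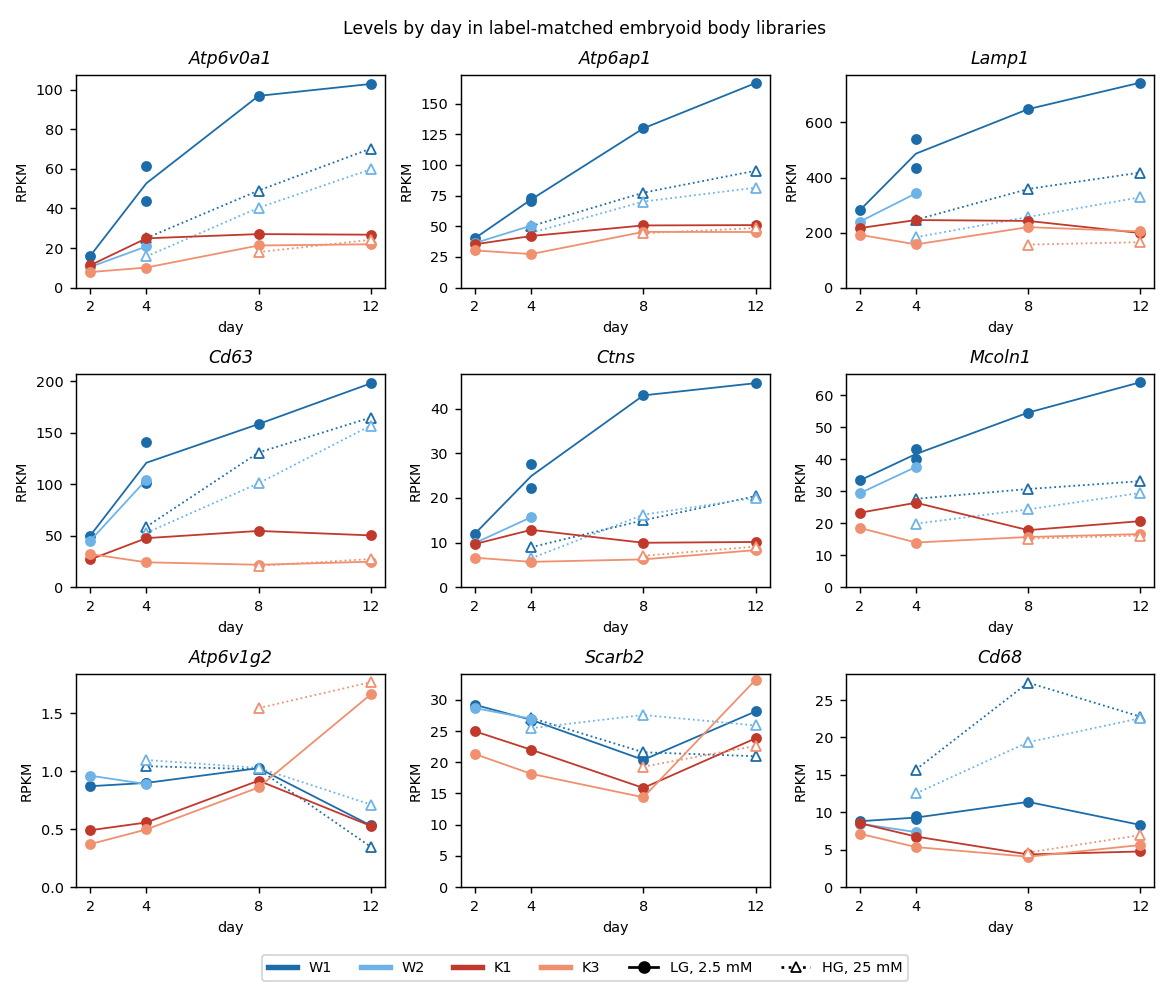
Level in RPKM (vertical, from 0) of 9 members by day (horizontal) in the label-matched embryoid body libraries, with colours for the 4 lines, filled circles for LG and open triangles for HG, and lines through the mean of the libraries of a line and day. Atp6v0a1, Atp6ap1, Lamp1, Cd63, Ctns and Mcoln1 rise in WT and are highest in W1 at LG day 12, while Scarb2 has no such rise and Cd68 is highest in WT under HG.

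In WT under LG, members rose between day 2 and day 12. WT at day 12 is W1 alone, so the difference between the lines is mixed with that of time. Of 31 tested, 17 were higher and 0 lower at day 12 (W1) than at day 2 (W1 and W2), against a background of 30% of genes higher and 24.4% lower (24.3% and 29.8% under quantile scaling), with a median of 0.68. Atp6v0a1 rose most, from 16.1 and 10.4 RPKM in W1 and W2 to 103 RPKM (2.89 ± 0.53, limma adjusted p = 0.00063). Slc17a5 rose by 2.37, Atp6ap1 by 2.09, Cd63 by 2.03, Ctns by 1.97 and Lamp2 by 1.81 on the log2 scale. Only 1 of 9 V1 genes, Atp6v1a (0.65), was among the 17, while 5 of 7 V0 genes, both accessory genes, 4 of 8 structural genes and all 5 channel and transporter genes were; the difference between the sectors was not tested. The summed level of the V0 sector went from 277 and 311 RPKM at day 2 to 687 RPKM at day 12, and that of the V1 sector from 534 and 562 RPKM to 657 RPKM. The visceral endoderm sum went from 8.94 and 46.2 RPKM to 2936 RPKM over the same days, with 11 of 13 markers higher. Of 7 fibroblast and feeder markers 6 were higher and 1 lower, with sums going from 5.48 and 6.89 RPKM to 1059 RPKM. Of 8 pluripotency markers 7 were lower and 1 higher, with sums going from 1455 and 1485 RPKM to 132 RPKM, and 3 of 6 macrophage and 3 of 5 cardiac markers were higher. What part these lists have was not tested. As labelled 0 members passed, and without W2 the count was 8.

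In DKO under LG, members moved both ways. Between day 2 and day 12, with K1 and K3 on both days, 7 were lower and 6 higher, against a background of 17.5% of genes lower and 33.4% higher, with a median of -0.20 against 0.20 for all genes. Under median-of-ratios scaling, which moved the median of all genes to 0.02 and the background to 25.9% lower and 26.4% higher, 9 members were lower and 4 higher, and under quantile scaling 8 and 4. Lamp2 (1.04 ± 0.21, limma adjusted p = 0.00124), Atp6v0a1 (1.27), Laptm4a (0.74), Atp6ap1 (0.54), Atp6v0a2 (0.49) and Atp6v0e2 (1.37) were higher. Atp6v1c1 (-0.72 ± 0.16, limma adjusted p = 0.00234), Tmem192 (-0.73), Atp6v1h (-0.68), Atp6ap2 (-0.56), Cd68 (-0.51), Ostm1 (-0.50) and Atp6v1d (-0.45) were lower. Lamp1 was at -0.02 ± 0.24 and did not pass (limma adjusted p = 0.961). Of 13 visceral endoderm markers 8 were higher at day 12, and their sum went from 2.61 and 11.4 RPKM to 121 and 219.6 RPKM. Of 7 fibroblast and feeder markers 6 were higher and of 8 pluripotency markers 7 were lower, and the part of these lists was not tested. The count was 2 as labelled, 6 without W1 and 7 without W2.

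The test of the difference between these changes, DKO against WT from day 2 to day 12, was past the threshold for 9 members, in all of which the log2 change was lower in DKO than in WT, against a background of 6.09% of genes lower and 12.3% higher (with median-of-ratios scaling 8.85% and 7.3%). They were Ctns (-1.79 ± 0.52, limma adjusted p = 0.033), Atp6v0b (-1.65), Atp6ap1 (-1.55), Lamp1 (-1.53), Atp6ap2 (-1.31), Tmem192 (-1.20), Ostm1 (-1.18), Atp6v0e (-1.09) and Atp6v1d (-0.81). Laptm4a and Lamp2, which were higher at day 12 than at day 2 in both genotypes, did not pass (-0.29, limma adjusted p = 0.355, and -0.77, adjusted p = 0.118). The same test was past the threshold for 3 of 13 visceral endoderm and 4 of 7 fibroblast and feeder markers with the lower change in DKO, and for 6 of 8 pluripotency markers with the higher, and their part was not tested. With the line as a replicate block 14 members passed. The count was 15 under median-of-ratios scaling, 0 as labelled, 0 without W2, 15 without K1 and 17 without K3.

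Under HG, DKO is represented by K3 alone. On the 4 matched LG days K1 was above K3 throughout in 17 of 31 members and below it in 0. What is particular to K3 cannot be told apart from the difference between genotypes under HG. At HG day 12, 15 members were lower and 1 higher than in W1 and W2, against a background of 12% of genes lower and 20.2% higher (with median-of-ratios scaling 15.8% and 14.3%), with a median of -0.84. Cd63 was at 165 and 157 RPKM in W1 and W2 and at 27.5 RPKM in K3 (-2.51 ± 0.49, limma adjusted p = 0.00347). Cd68 was at 22.8 and 22.6 RPKM in W1 and W2 and at 6.94 RPKM in K3 (-1.58 ± 0.22, limma adjusted p = 0.00069). The macrophage markers moved with it: all 6 tested were lower, and they summed to 43.4 and 48.2 RPKM in WT against 12.7 RPKM in K3, a part that was not tested. Visceral endoderm markers summed to 3218 and 5383 RPKM in WT and to 853 RPKM in K3, with 2 of 13 lower and 0 higher. Of 7 fibroblast and feeder markers 5 were lower and 2 higher, with sums of 1502 and 1940.0 RPKM in WT and 169 RPKM in K3. Of 8 pluripotency markers 6 were higher and 1 lower, with sums of 66.0 and 70.8 RPKM in WT and 248 RPKM in K3. The part of these lists was not tested.

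The 1 member that was higher at HG day 12 was Atp6v1g2, at 0.347 and 0.712 RPKM in W1 and W2 and at 1.77 RPKM in K3 (0.87 ± 0.26, limma adjusted p = 0.0238). It did not pass under quantile scaling. Atp6v1g2 overlaps an exon of Nfkbil1 on the opposite strand, and reads were not assigned by strand, so its low level is uncertain. Its isoform partner Atp6v1g1 was at 35.4 and 33.1 RPKM in WT and at 19.4 RPKM in K3, so that Atp6v1g1 stood 46.5 times above Atp6v1g2 in W2 and 11 times in K3. All 6 neural markers were higher in K3 at HG day 12, and the neural sum was 11.2 and 11.7 RPKM in WT and 110.1 RPKM in K3; its part was not tested. Of the 5 cardiac markers all were higher as well, with sums of 154 and 165 RPKM in WT and 954 RPKM in K3. As labelled, 1 member passed at HG day 12, and 1 did without W1 and 1 without W2.

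At HG day 8, 7 members were lower in K3 and 0 higher, against a background of 7.38% lower and 7.89% higher, with a median of -0.83. They were Cd63 (-2.41), Cd68 (-2.10), Atp6v0b (-1.48), Lamp1 (-0.95, limma adjusted p = 0.0498), Atp6ap2 (-0.92), Atp6v1h (-0.73) and Lamp2, which was at 58.0 and 49.9 RPKM in W1 and W2 and at 26.4 RPKM in K3. None of the 5 channel and transporter genes passed in limma, and 4 had an unadjusted p under 0.05, with differences between -1.13 and -0.52. Visceral endoderm markers, of which 5 of 13 were lower, summed to 1163 and 1983 RPKM in WT and to 126 RPKM in K3. Of 7 fibroblast and feeder markers 4 were lower, with sums of 127 and 147 RPKM in WT and 30.8 RPKM in K3, and of 8 pluripotency markers 3 were higher, with sums of 156 and 233 RPKM in WT and 428 RPKM in K3. Of 6 macrophage markers 1 was lower and of 6 neural markers 1 was higher, and the part of these lists was not tested. The count was 0 as labelled, 1 without W1, 1 without W2 and 21 without K1.

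Within WT, 11 of 31 members were higher in LG (W1) than in HG (W1 and W2) over days 8 and 12 together, 1 was lower and the others did not pass, against a background of 4.23% of genes higher and 10.5% lower (with median-of-ratios scaling 7.02% and 7.91%), with a median of 0.45. As LG is W1 alone, the difference between the lines is mixed with that of glucose here. W1 minus W2 averaged 0.427 in Lamp1 and 0.057 in Clcn7 on the log2 scale over the matched conditions. Within W1 on day 12, Lamp1 was at 745 RPKM in LG and at 418 RPKM in HG, and W2 was at 328 RPKM in HG. Within W1 on day 12, Clcn7 was at 28.2 RPKM in LG and at 11.3 RPKM in HG, with W2 at 12.1 RPKM in HG. On that day the LG value lay above both HG values in both genes. Over both days together the log2 difference was 1.05 ± 0.21 in Lamp1 (limma adjusted p = 0.0069) and 1.11 ± 0.18 in Clcn7 (limma adjusted p = 0.00267). The others higher in LG were Ctns (1.27), Mcoln1 (0.99), Atp6v0d1 (0.89), Atp6ap1 (0.86), Atp6ap2 (0.68), Atp6v1c1 (0.65), Atp6v1d (0.63), Ostm1 (0.59) and Atp6v0a2 (0.55).

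Cd68 went the other way and was the 1 member lower in LG (-1.15 ± 0.16, limma adjusted p = 0.000837), at 11.4 and 8.30 RPKM in LG on days 8 and 12 and at 27.3 and 22.8 RPKM in HG within W1. The macrophage sum was 2.44 and 8.61 RPKM in W1 under LG on the 2 days, and 4.23 to 8.75 and 43.4 to 48.2 RPKM in WT under HG, which was not tested as a part of the Cd68 difference. The visceral endoderm sum, which was higher in WT than in DKO, was 1035 and 2936 RPKM in W1 under LG and 1163 to 1983 and 3218 to 5383 RPKM in WT under HG. All 6 macrophage markers and all 5 cardiac markers were lower in LG, the cardiac sum being 4.66 and 17.2 RPKM in W1 under LG and 154 to 509.6 RPKM in WT under HG. Of 7 fibroblast and feeder markers 4 were lower, of 13 visceral endoderm markers 1 was lower, and 3 of 6 neural markers and 1 of 8 pluripotency markers were higher. The part of these lists in the members' differences was not tested. As labelled 1 member passed the glucose comparison, and 1 did without W2. In DKO, which had HG values for K3 alone, 0 of 31 members passed over days 8 and 12 in limma, 4 had an unadjusted p under 0.05 and the median was 0.18, against a background of 1.81% of genes higher and 4.9% lower (with median-of-ratios scaling 2.75% and 4.17%). Without K1, which had label-matched values on these days only under LG, the median was 0.05. Lamp1 was at 219.8 and 204 RPKM in K3 under LG and at 156 and 165 RPKM under HG on the 2 days. All 5 cardiac markers and 2 of 6 macrophage markers were lower in LG in DKO, and their part was not tested. Whether the response to glucose differed between the genotypes was not tested.

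Day 4 had both WT lines at both glucose levels, and this comparison was added after the values were seen. There, 8 members were higher in LG and 1 was lower, against a background of 4.31% of genes higher and 7.86% lower (with median-of-ratios scaling 5.79% and 5.63%), with a median of 0.60. Ctns was at 22.3, 27.5 and 15.7 RPKM in the 3 LG libraries (W1, W1 and W2) and at 8.98 and 6.48 RPKM in the HG libraries of W1 and W2, and every LG value lay above every HG value (1.26 ± 0.33, limma adjusted p = 0.0279). Atp6v1h (0.92), Atp6v1c1 (0.85), Atp6v1d (0.72), Atp6v1a (0.68), Lamp1 (0.94), Clcn7 (0.80) and Ostm1 (0.70) were higher too. Cd68 was lower (-0.70 ± 0.18, limma adjusted p = 0.0287) and did not pass under median-of-ratios or quantile scaling. Macrophage markers summed to 0.52 to 0.706 RPKM in LG and to a median of 1.49 RPKM in HG, and visceral endoderm markers to 31.2 to 367 RPKM in LG and to 85.9 and 244.9 RPKM in HG, and their part was not tested. The count was 0 as labelled, 0 without W1 or without W2, and 18 without K1 or without K3.

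In WT under HG, also added after the values were seen, 12 members were higher at day 12 than at day 4 and 0 were lower, with W1 and W2 on both days, against a background of 22.2% of genes higher and 27% lower, with a median of 0.42. Lamp2 rose from 26.1 and 20.5 RPKM in W1 and W2 to 70.4 and 73.9 RPKM (1.60 ± 0.21, limma adjusted p = 6.3e-05). Atp6v0a1 rose from 25.1 and 15.7 RPKM to 70.3 and 59.8 RPKM (1.66 ± 0.43, limma adjusted p = 0.0073). Cd63 rose by 1.51, Ctns by 1.30, Slc17a5 by 1.01, Atp6ap1 by 0.88 and Lamp1 by 0.80 on the log2 scale, and Cd68, Atp6v1a, Atp6v0e, Ostm1 and Laptm4a by 0.42 to 0.66. The days did not overlap in Lamp2 or Atp6v0a1. Marker lists moved over the same days. All 6 macrophage markers tested were higher, with sums going from a median of 1.49 RPKM to 43.4 and 48.2 RPKM. Visceral endoderm markers were higher in 10 of 13, with sums going from 85.9 and 244.9 RPKM to 3218 and 5383 RPKM, and fibroblast and feeder markers in 6 of 7, from 12.2 and 19.4 RPKM to 1502 and 1940.0 RPKM. All 5 cardiac markers were higher, 7 of 8 pluripotency markers were lower and 3 of 6 neural markers were lower. The part of these lists was not tested. The count was 1 as labelled, 1 without W1, 1 without W2, and 20 without K1 or without K3.

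Isoform pairs of the pump differed in level and in course. Of the pair for the membrane subunit, Atp6v0a1 stood 2.04 times above Atp6v0a2 per length in W1 at LG day 2 and 7.57 times at LG day 12. In W2 under HG it stood 1.63 times above on day 4 and 7.79 times on day 12. In K3 under LG the multiple was 1.13 at day 2 and 2.07 at day 12, and in K1 1.33 and 2.25. Atp6v0a2 itself was at 13.6 RPKM in W1 at LG day 12 and at 11.9 and 10.6 RPKM in K1 and K3, so the lower multiple in DKO went with lower Atp6v0a1. Over the label-matched libraries Atp6v0d1 was between 36.8 and 157 RPKM, while its isoform Atp6v0d2, known from osteoclasts and kidney, did not pass 0.297 RPKM. Over the same libraries Atp6v1c1 was between 23.6 and 70.0 RPKM, while Atp6v1c2 did not pass 0.869 RPKM.

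The 2 lines of a genotype also differed from each other. K1 was above K3 on all 4 matched LG days in 17 of 31 members and below it in 0, where 18.9% of all tested genes were above and 12.1% below throughout. W1 was above W2 in all 5 matched conditions in 12 of 31 members and below it in 0, where 6.63% of all genes were above and 5.1% below. These shares describe 4 lines and were not tested. The W1 to W2 difference averaged 0.65 in Atp6v0a1, 0.43 in Lamp1 and 0.40 in Atp6v0d1 on the log2 scale, and had a median of 0.15 over the members. Its highest value over the 5 conditions was 1.517 in Atp6v0a1, 0.655 in Lamp1 and 0.513 in Atp6v0d1. WT is W1 alone on LG days 8 and 12, so the W1 to W2 difference on those days is not known. It cannot be told apart from the difference between genotypes there. It is also mixed into the WT comparisons of LG with HG over days 8 and 12 and of LG day 12 with day 2. DKO is K3 alone on HG days 8 and 12, so the K1 to K3 difference there cannot be told apart from that of genotype. The K1 to K3 difference averaged 0.74 in Cd63, 0.72 in Atp6v0c and 0.70 in Atp6v0b, and it was below 0 in Tmem192, Lamp2, Laptm4a, Atp6v1g2 and Atp6v0e.

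**Figure D4:**
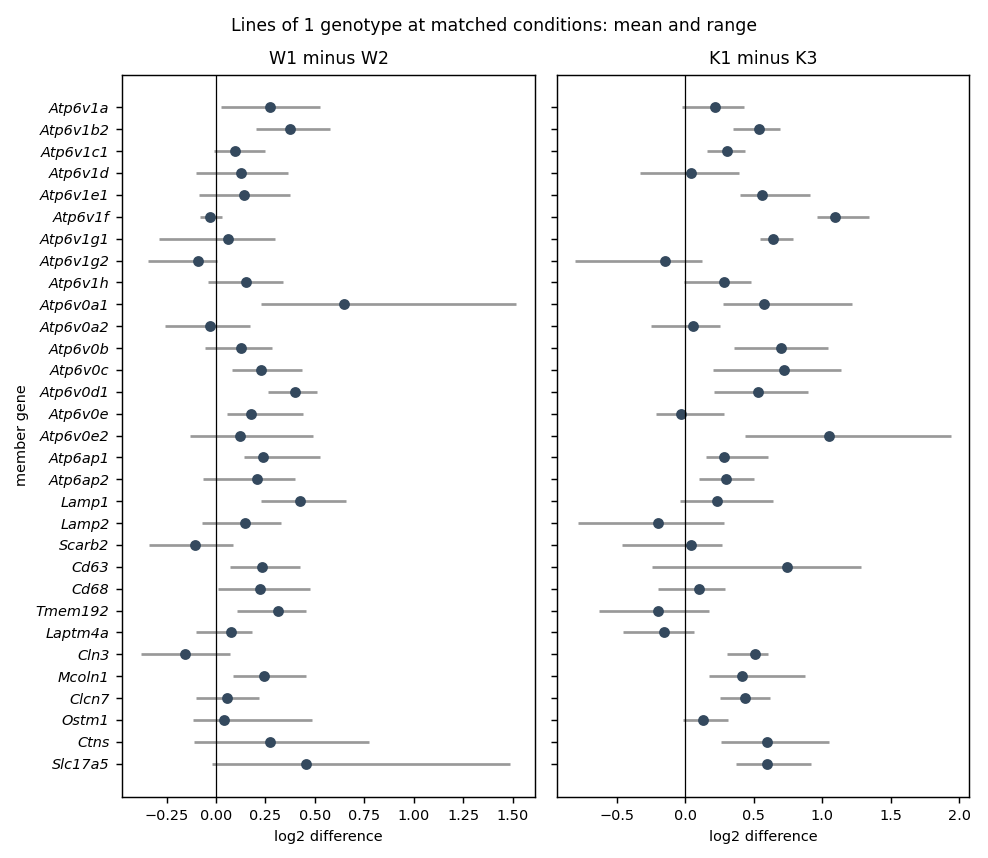
Log2 difference of log2(RPKM + 1) between the lines of a genotype (horizontal) for each of the 31 tested members (vertical), W1 minus W2 over 5 matched conditions on the left and K1 minus K3 over 4 on the right, with a point for the mean and a bar from the lowest to the highest condition. Most points lie right of 0, and Atp6v1f and Atp6v0e2 lie farthest right for K1 against K3.

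The largest differences between K1 and K3 were in Atp6v1f and Atp6v0e2, genes on chromosome 6 whose neighbours differed between these lines too. Atp6v1f (chr6:29467783-29470509) was at 81.2, 98.4, 55.9 and 48.7 RPKM in K1 and at 41.3, 49.0, 21.4 and 22.3 RPKM in K3 on LG days 2, 4, 8 and 12. Its average K3 to K1 difference was -1.10, and the 19 tested genes within 1000000 bases of it had a median of -0.82, with 18 of 19 below 0. Atp6v0e2 (chr6:48537569-48541800) was at 1.35, 3.56, 5.70 and 6.91 RPKM in K1 and at 0.737, 1.97, 0.75 and 2.45 RPKM in K3, an average of -1.05 against a median of -0.53 for its 29 neighbours. Atp6v1e1 (chr6:120795244-120822685) was at 117, 124, 107 and 93.5 RPKM in K1 and at 88.3, 65.5, 73.7 and 70.0 RPKM in K3, an average of -0.56 against -0.48 for its 17 neighbours. Against WT on days 2 and 4, K3 differed by -1.02 in Atp6v1f and by -0.70 in the median of its neighbours, and by -1.06 in Atp6v0e2 and -0.62 in its neighbours. In Atp6v1e1 K3 differed from WT by -0.65, while its neighbours were at -0.07, beside 0 for all genes. Whether these stretches have a part in the differences between genotypes was not tested. Of the 3, Atp6v1e1 passed at LG day 12, and Atp6v1f and Atp6v1e1 did at HG day 12. Without the 3 genes 23 of 28 members were lower at LG day 12 and 13 were lower and 1 higher of 28 at HG day 12.

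Other genes of the pathway were described from 3 lists. Of 33 other lysosomal membrane genes, 29 were tested at LG day 12, and 14 were lower (48.3%, against 13% of all genes) and 1 higher, with a median of -0.77. The smallest p values were those of Lmbrd1 (-1.40 ± 0.19, limma adjusted p = 0.000355), which exports vitamin B12 from lysosomes, Npc1 (-1.20 ± 0.20, limma adjusted p = 0.00113), which exports cholesterol, and the sialomucin gene Cd164 (-0.79 ± 0.14, limma adjusted p = 0.00138). Of 10 genes for assembly and regulation of the V-ATPase, 2 were lower (20%) and 0 higher, with a median of -0.21: Wdr7 (-1.22 ± 0.24, limma adjusted p = 0.00263) and Rnasek (-1.11 ± 0.40, limma adjusted p = 0.047), with Rogdi at -0.46 (limma adjusted p = 0.0686). Of 6 other subunit genes 2 were tested, and Tcirg1, the osteoclast isoform of the membrane subunit, was lower (-0.91 ± 0.30, limma adjusted p = 0.0333) while Atp6v0a4 was at 0.54 ± 0.61 (limma adjusted p = 0.524). In WT under LG, 17 of the 29 other membrane genes were higher (58.6%, against 30% of all genes) and 2 lower at day 12 than at day 2. In DKO 9 were higher (31%, against 33.4% of all genes) and 3 lower.

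The 18 libraries that went against their labels entered only the counts given as labelled, and their values are given as measured. The highest Lamp1 levels among them were 585 RPKM in the library labelled K3 ESC, 478 RPKM in that labelled W2 ESC, 335 RPKM in the earlier of the libraries labelled K1 HG day 4 and 321 RPKM in that labelled W1 ESC. In these 4 libraries Prkaa2 was at 18.1, 12.6, 5.01 and 2.02 RPKM and Txnip at 2.18, 0.997, 124 and 0.465 RPKM. The lowest were 109 RPKM in the library labelled W2 LG day 8 and 112 RPKM in that labelled W2 LG day 12, with Prkaa2 at 0.416 and 0.04 RPKM and Txnip at 65.2 and 190.3 RPKM. Ctns was at 42.5, 31.8 and 14.9 RPKM in the libraries labelled K3, W2 and W1 ESC and at 10.3 RPKM or less in the other 15. The K1 ESC library, the 1 label-matched ESC library, had Lamp1 at 148 RPKM and Ctns at 5.68 RPKM. ESC and embryoid bodies were therefore not compared.

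**Figure D5:**
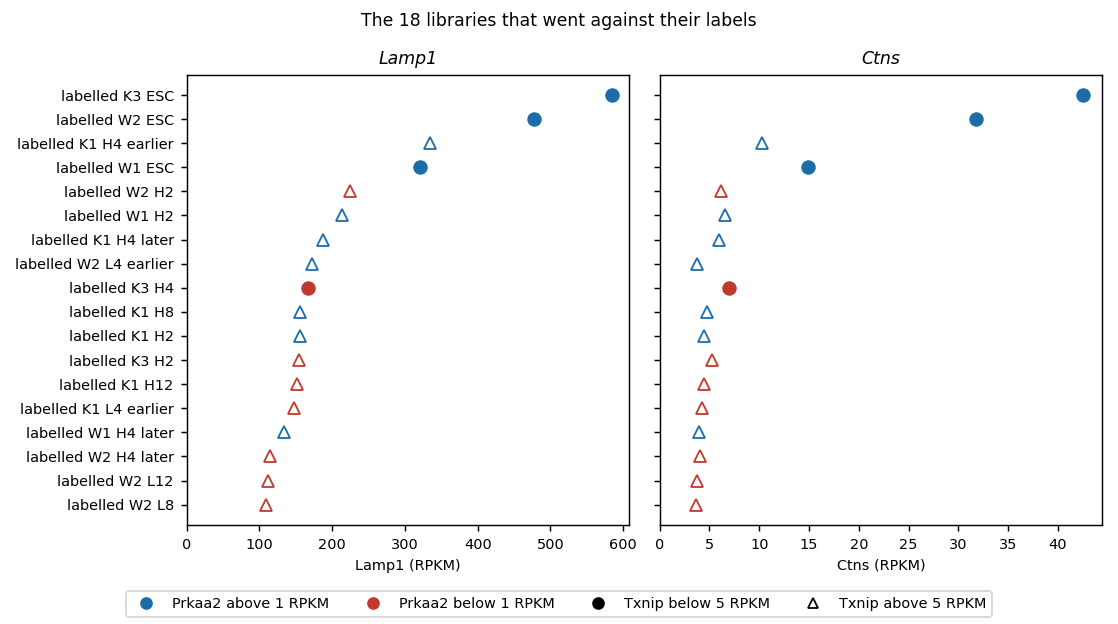
Lamp1 and Ctns levels in RPKM (horizontal, from 0) in the 18 libraries that went against their labels (vertical, ordered by Lamp1), blue for Prkaa2 above 1 RPKM and red for below, filled circles for Txnip below 5 RPKM and open triangles for above. The libraries labelled K3, W2 and W1 ESC, blue circles, hold the 3 highest Ctns levels.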

How the data were processed

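Poly-A mRNA of 42 libraries was made with a TruSeq version 2 kit that does not keep strand, per the labels' protocols. The authors deposited 1 table of RPKM values for 24225 genes, the unit being that of the file headers. STAR 2.4.0k, HOMER and FastQC 0.11.2 are among the tools in the submitters' processing notes, as are R 3.1.1 with edgeR 3.6.8, and the build is mm10 (GRCm38); roles are not stated. RPKM steps of low genes came out as whole reads (100% within 0.1 read), which gave relative depths; RPKM values are not counts, so no count test was used. Counting error limits low genes most.

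Members, lists and library thresholds were chosen with earlier results of these data known. Libraries were grouped by their headings, and those that went against Prkaa2 (1 RPKM), Txnip (5 RPKM) or line markers were left out of the tests. Libraries of 1 line and condition were averaged, which left 23 values and 9 residual degrees of freedom, all from groups with 2 lines. limma 3.58.1 in R 4.3.3 was fitted to log2(RPKM + 1), which understates changes of low genes, over 14670 genes at 1 RPKM or more in at least 2 values, with Benjamini-Hochberg adjustment over all of them and a threshold of 0.05. The fit was tested on simulated data.

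Within a genotype, same-numbered samples are the same cell line, so numbers pair samples there: line deviations correlated at 0.116 to 0.64 over 16 pairs of conditions. Values per library are printed for isoform pairs, chromosome 6 members and 7 further members. They are also printed for the 2 members of each role with the smallest p at LG day 12. Those were chosen by that difference, so DKO values below W1 in them on that day follow from the choice. Other pathway genes are the 3 with the smallest p per list. Alternatives covered the libraries used, pseudocount, filter, scaling, line block and each line left out. Reads were not assigned by strand, and 10 of 33 members overlap an exon of a gene on the opposite strand, so such reads cannot be told apart. Among the 10 are Atp6v1e1, Atp6v1g2, Atp6v1h, Atp6v0b, Lamp1, Tmem192, Cln3 and Ostm1.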

Additional observations from a re-analysis of the deposited data

Results flagged for a closer look

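In 3 cases, within groups of 4 libraries as labelled, 1 library stood apart from the others in a member's level, by Dixon's criterion, which chance meets in about 1 in 20 groups. All 33 members were examined in each of WT HG day 4 and WT LG day 4, so cases in this number can arise by chance. Scarb2 was at 16.9 RPKM in the later library labelled W2 HG day 4 and at 25.5 to 27.1 RPKM in the other 3 of WT HG day 4. Tmem192 was at 29 RPKM in the earlier W1 library of that group and at 21.6 to 22.6 RPKM in the other 3. Atp6v1g2 was at 1.47 RPKM in the earlier library labelled W2 LG day 4 and at 0.888 to 0.902 RPKM in the other 3 of WT LG day 4. Both W2 libraries named here went against their labels and are not in the label-matched set.

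For 9 members the change from day 2 to day 12 under LG differed between DKO and WT by the interaction term of the limma fit. The differences of the log2 changes were -1.79 for Ctns, -1.65 for Atp6v0b, -1.55 for Atp6ap1, -1.53 for Lamp1, -1.31 for Atp6ap2, -1.20 for Tmem192, -1.18 for Ostm1, -1.09 for Atp6v0e and -0.81 for Atp6v1d. WT at day 12 is W1 alone in these values, and 0 of the 9 passed without W2.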

How the results depend on the processing

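Counts of members past the threshold moved most with the libraries used and with which line was left out; the cause was not tested. As labelled, with 36 values, the counts on LG days 4, 8 and 12 were 0, 0 and 1, those on HG days 8 and 12 were 0 and 1, and the others were 0 for time in WT under LG, 2 for time in DKO, 0 for genotype by day, 1 for glucose in WT over days 8 and 12, 0 for glucose in WT on day 4 and 1 for time in WT under HG. Lamp2 at LG day 12 changed sign there (0.28). With libraries chosen by Prkaa2 and Txnip alone, the count was 0 at LG day 4, 3 at HG day 8, 4 for genotype by day and 4 for glucose in WT on day 4. Median-of-ratios scaling gave 1 at LG day 4, 15 for genotype by day and 1 for glucose in DKO, quantile scaling gave 14 for genotype by day, and no filter gave 1 at LG day 4 and 5 for genotype by day. A paired fit with the line as replicate block gave 9 at LG day 4 and 14 for genotype by day, and moved no other count by over 1.5 times.

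With each line left out in turn, which assumes that a lone line varies like the others, counts on LG days 2, 4, 8 and 12 ranged from 0 to 2, 0 to 23, 0 to 26 and 16 to 26, those on HG days 8 and 12 from 1 to 21 and 1 to 24, and the others from 8 to 19 for time in WT under LG, 6 to 12 for time in DKO, 0 to 17 for genotype by day, 1 to 18 for glucose in WT over days 8 and 12, 0 to 0 for glucose in DKO, 0 to 18 for glucose in WT on day 4 and 1 to 20 for time in WT under HG. A pseudocount of 0.1 and leaving out the 3 chromosome 6 members moved no count by over 1.5 times. Glucose in WT on day 4 and time in WT under HG were chosen after seeing the data. Depth limits Atp6v1g2, Atp6v1c2 and Atp6v0d2, which lie near or under 1 RPKM.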
